A study of Mus musculus and Homo sapiens with 12 samples.

Results

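The genes described here are 8 transcription factors of the pancreatic and foregut lineage: GATA4, GATA6, HNF4A, FOXA1, FOXA2, FOXA3, PDX1 and SOX9. They were chosen by name, as the rows of each comparison table whose gene symbol, written in capitals, matched the list. No measured value entered that rule, but the list itself was chosen with earlier results of these data known. All 8 were found in both tables, and all 8 passed the filter on low values in both, out of 28079 gene symbols in the series. The tables give symbols and no coordinates.

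Per the protocols, RNA was sequenced from liver tumours, in 12 samples of 4 groups with 3 biological replicates each. KPC LM2 is a second-generation liver-metastatic derivative (generation 2) of the mouse pancreatic ductal carcinoma line KPC. PANC1 LM3 is the corresponding third-generation derivative (generation 3) of the human pancreatic ductal carcinoma line PANC1. All 4 groups carry the genotype label WT, and in every group 500,000 cells were put into the spleen on day 1 and tumours in the liver were taken on day 21. The labels give no host strain, no driver mutation of either line and no number of animals per sample, and they do not say whether a derivative is 1 clone. The samples were labelled as biological replicates, and nothing in the labels ties them to separate animals, so p-values measure the spread between these samples, which may be technical. The sample titles name cells, while the protocols name tumours as the source of the RNA.

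GATA4 and GATA6 are zinc finger factors of the endoderm, and in the mouse pancreas they act together in the progenitors. FOXA1, FOXA2 and FOXA3 are forkhead pioneer factors that open chromatin in gut, liver and pancreas, and HNF4A is a nuclear receptor that maintains the epithelial programme of liver and intestine. PDX1 is the homeobox factor required for the pancreas to form, and SOX9 is the high-mobility-group factor of pancreatic progenitors and ducts. In human pancreatic cancer, GATA6 and HNF4A are known as factors of the classical subtype, whose cells keep a glandular programme, in contrast to the basal-like subtype.

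Each model came as 1 table of the authors' own comparison, with a mean normalised count over the libraries (read here as counts divided by library size factors, as in DESeq2, since the headers do not define it), a log2 fold change and its standard error (SE). No value per library was used, so the spread between samples appears only through the SE, and how deeply each sample was sequenced is unknown. The tables do not name the group on top of the ratio. A positive value therefore means higher in that unnamed group, and neither sign is assigned to the derivative or to the line it came from. A gene is called changed where the authors' Wald test has an adjusted p under 0.05 over all tested genes. For each factor the level in the group on top and in the group below was computed from the listed mean and fold change, with 3 libraries on each side. These are approximate values with no SE of their own. The RNA is from bulk samples, in which fewer cells of a type and less RNA per cell cannot be told apart.

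Markers of hepatocytes, acinar cells and islets, which also use some of these factors, were near the detection floor in KPC and mostly so in PANC1. The PANC1 values are for human genes, so low marker values there do not show that cells of a non-human host were few. The 13 hepatocyte markers present in the authors' deposited table for KPC summed to a mean normalised count of 112, with albumin (Alb) at 10.4 and the highest, Ttr, at 26.7, and none of the 10 tested was called by the Wald test, 4 of them having an unadjusted p under 0.05. Hnf4a, a factor that hepatocytes also use, stood at 2238 in the authors' deposited table for KPC, and the part of hepatocytes in that value was not tested. The 6 hepatocyte markers of the authors' deposited table for PANC1 summed to 149, of which the urea cycle gene CPS1 made up 132, and CPS1 was the only one called (-1.45 ± 0.18). No listed hepatocyte marker was at 0, but 2 of the 15 sought had no row in KPC and 9 of the 15 had none in PANC1. Levels of these markers per group were not analysed here. Acinar markers, which would show normal exocrine pancreas, summed to 53.0 in KPC, where the elastase gene Cela1 was the 1 of 6 called (2.16 ± 0.62), and to 19.4 in PANC1, and the highest islet marker, CHGA, was at 3.30 in KPC and 1.53 in PANC1, in the authors' deposited tables. By contrast, the 8 cholangiocyte markers, which pancreatic duct cells share, summed to 25862 in KPC and the 6 found in PANC1 to 21521, in the authors' deposited tables. Of these, 4 positive and 1 negative of the 8 were called in KPC (62.5%, against 10.4% of all tested genes). In PANC1 1 positive and 2 negative of the 6 were called (50.0%, against 52.5%), so that count lies near the background. In the authors' deposited table for KPC the water channel gene Aqp1 was at 1.53 ± 0.31 and the anion exchanger gene Slc4a2 at 0.67 ± 0.20. SLC4A2 was at -0.33 ± 0.06 in the authors' deposited table for PANC1. The other called markers (Krt7, Spp1 and Epcam in KPC, KRT19 and EPCAM in PANC1) are also in a target list described below. The part of duct-like cells in the values of the factors was not tested.

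The endothelial, fibroblast and leukocyte marker lists of the authors' deposited table for KPC each had at most 1 called gene by the Wald test, with sums of 149, 110 and 109. The called share was 0%, 11.1% and 14.3% of the tested markers, against 10.4% of all tested genes. The calls were Col1a1 at -1.84 ± 0.63 and the macrophage gene Adgre1 at -2.88 ± 0.75 in the authors' deposited table. An unadjusted p under 0.05 was found for 2 of 9 endothelial, 5 of 9 fibroblast and 2 of 7 leukocyte markers. Their median log2 fold changes were -1.14, -1.66 and -1.27, in a table where 80.5% of all genes under 64 were negative. In the authors' deposited table for PANC1 these lists summed to 23.2 over 3 markers, 652 over 6 and 1115 over 4. Most of the last 2 sums came from the collagen gene COL3A1 (405, 1.05 ± 0.11) and the lysosomal gene CD68 (1103, 1.91 ± 0.07), both called positive in the authors' deposited table. No other marker of these 2 lists was called there, COL1A1 being at -0.13 ± 0.16, RGS5 at -0.28 ± 0.25 and PTPRC at -0.08 ± 1.16. The list medians in PANC1 were -0.21 for fibroblast and -0.08 for leukocyte markers. The 1 endothelial call in the authors' deposited table for PANC1, CDH5 with a listed mean of 9.89, was negative at -4.09 ± 0.95. The part of host cells in the values below was not tested, and the human gene values of PANC1 cannot measure a non-human host.

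Between KPC LM2 and KPC samples, Pdx1 was the 1 factor of the 8 that was called. This is a share of 12.5%, against 10.4% of all 20,050 tested genes of that table, so the count lies near the background. Between PANC1 LM3 and PANC1 samples, 5 of the 8 were called, namely GATA6, FOXA3 and SOX9 with positive and FOXA1 and GATA4 with negative values. That is 62.5%, against 52.5% of all 17,838 tested genes. No factor was called in both models, where 7.30% of all 13,312 symbols found in both tables were, so a count of 0 of 8 lies near the background. The median log2 fold change of the 8 was 0.09 in KPC, where the median of all tested genes was -0.08, and 0.36 in PANC1, where it was -0.002. The median absolute log2 fold change was 0.31 for the 8 factors in KPC against 0.52 for all tested genes, and 1.17 against 0.47 in PANC1. Absolute fold changes went with level, with a median over all tested genes under 64 of 1.19 in KPC and 0.76 in PANC1, against 0.29 and 0.37 over those at 64 or more. In PANC1 5 of the 8 factors were under 64, among them the uncalled HNF4A and PDX1 with an SE over 1, so the median of the 8 is not comparable with that of all genes.

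**Figure D1:**
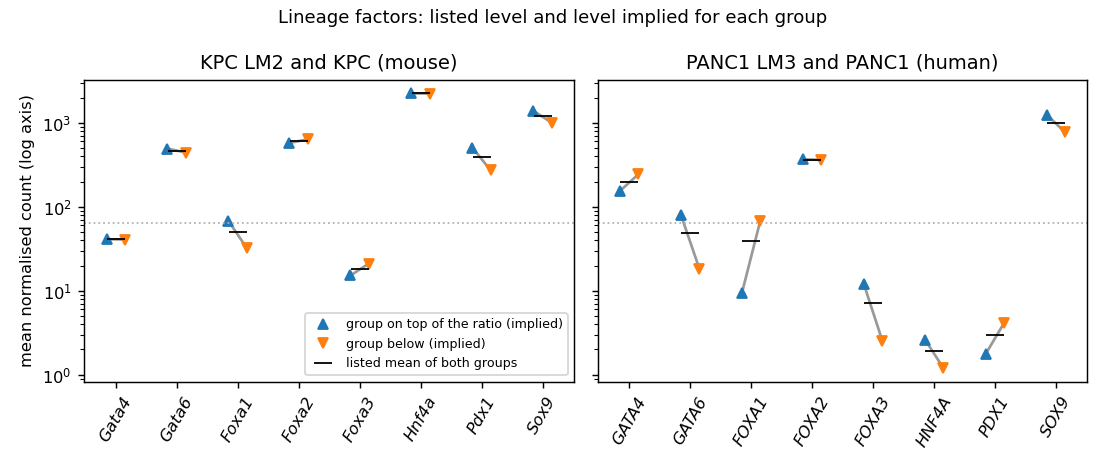
Mean normalised count (log axis) of each lineage factor in the mouse model (left) and the human model (right). Blue upward triangles are the level implied for the group on top of the ratio, orange downward triangles that for the group below, black dashes the listed mean, and the dotted line marks 64. In the human model FOXA1 (9.49 against 68.2) and GATA6 (79.5 against 18.4) are far apart, and in the mouse model Hnf4a (2241 against 2236) is at nearly the same level in both groups. The 2 tables were normalised separately.

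The KPC samples of both groups had most of the lineage set. Divided by exonic length, the listed level was highest for Hnf4a, at 464 normalised counts per kb, followed by Sox9 at 290, Foxa2 at 256 and Pdx1 at 181. Gata6 had 72.0 per kb. Foxa1, Gata4 and Foxa3 were low, at 15.1, 10.5 and 8.90 per kb. These levels per kb have no error of their own, so neighbours in the order are not shown to differ. On the same scale Gata5, a paralog of Gata4 and Gata6, had 164 per kb. The human table could not be put on this scale, because no human exon lengths were used here.

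In PANC1 the same genes stood at other levels. HNF4A and PDX1 were close to the floor, at listed means of 1.92 and 2.97 in the authors' deposited table, where the lowest level of any tested gene was 1.08. FOXA3 was at 7.24, FOXA1 at 38.8 and GATA6 at 49.0 in the authors' deposited table. Past 64 were SOX9 at 1008, FOXA2 at 365 and GATA4 at 199 in the authors' deposited table. The tables were normalised separately and come from 2 species, so a level in one is not tested against a level in the other.

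Pdx1, the factor called in KPC, is needed for pancreatic bud growth and later for beta cell identity. Its implied level was 508 in the group on top and 272 in the group below. In the authors' deposited table it had a log2 fold change of 0.90 ± 0.19 (a 1.87-fold difference, 95% interval 1.44 to 2.43) and a Wald test adjusted p of 0.000209. With the median fold change of its neighbours in expression level subtracted, Pdx1 was at 0.68 and still called (normal test, adjusted p 0.0125). Read on a t scale with 4 degrees of freedom, the Wald statistic of Pdx1 had an adjusted p of 0.43, under which 0 of the 20,050 genes were called and 2132 had an unadjusted p under 0.05. PDX1 in PANC1 was at -1.22 ± 1.09 in the authors' deposited table, with implied levels of 1.79 in the group on top and 4.16 in the group below. With an SE of that size an absolute log2 fold change under 2.42 would not have been called.

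Sox9 came next to Pdx1 in the mouse table among factors above 64 and missed the threshold. It drives the ductal programme and marks progenitors in the embryonic mouse pancreas. Its implied level in KPC was 1389 in the group on top and 1009 in the group below. The log2 fold change was 0.46 ± 0.23 with a Wald test adjusted p of 0.16 in the authors' deposited table. Human SOX9 had the smallest SE of all 8 factors and the smallest adjusted p. Its implied level in PANC1 was 1246 in the group on top and 769 in the group below, and its log2 fold change was 0.70 ± 0.07 (1.62-fold, 1.47 to 1.78) with a Wald test adjusted p of 7.76e-22 in the authors' deposited table. The listed sign was positive in both tables, and the listed means (1199 and 1008) were of like size, but the SE was 0.225 in the mouse table and 0.071 in the human table. The same held for genes at large: at 64 or more, the median SE was 0.243 in KPC and 0.090 in PANC1.

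**Figure D2:**
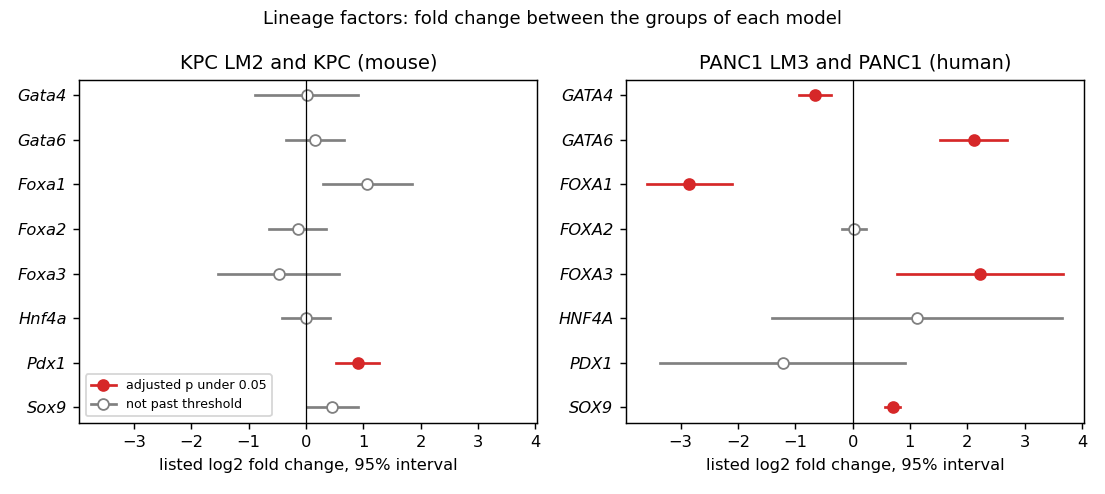
Listed log2 fold change of each lineage factor (points) with its 95% interval (bars) in the mouse model (left) and the human model (right). Red filled points have an adjusted p under 0.05 and grey open points do not. FOXA1 is at -2.85 and GATA6 at 2.11 in the human model, FOXA2 is near 0 in both, and HNF4A and PDX1 have wide intervals in the human model and narrow ones in the mouse model.

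GATA6 and GATA4, which can stand in for each other in the mouse pancreas, had opposite signs in PANC1. GATA6 was implied at 79.5 in the group on top and 18.4 in the group below, and its log2 fold change was 2.11 ± 0.30 (4.32-fold, 2.87 to 6.50) with a Wald test adjusted p of 1.25e-11 in the authors' deposited table. For GATA4 the implied levels were 155 in the group on top and 244 in the group below. The authors' deposited table had GATA4 at -0.66 ± 0.14 with a Wald test adjusted p of 1.18e-05, which is a 1.58-fold difference (1.30 to 1.91) in the other direction. Neither gene was called in KPC. Gata6 was at 0.16 ± 0.26 with implied levels of 495 in the group on top and 442 in the group below, and Gata4 at 0.01 ± 0.46 with 41.2 and 40.8, in the authors' deposited table. The 95% interval of Gata6 ran from -0.35 to 0.67 and that of Gata4 from -0.89 to 0.91. An absolute log2 difference under 0.73 for Gata6 and under 1.28 for Gata4 would not have been called with these SEs.

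The 3 FOXA genes did not move together. FOXA1 had the largest absolute log2 fold change of the 8 factors in either table. It was implied at 9.49 in the group on top and 68.2 in the group below of PANC1, with a log2 fold change of -2.85 ± 0.38 (7.19-fold, with a log2 interval from -3.59 to -2.10) and a Wald test adjusted p of 3.44e-13 in the authors' deposited table. FOXA3, the paralog best known from liver, was positive at 2.22 ± 0.74 with a Wald test adjusted p of 0.00627 in the authors' deposited table. Its implied levels were only 11.9 in the group on top and 2.56 in the group below, and whether single libraries were at 0 is not shown. On the t scale with 4 degrees of freedom the adjusted p of FOXA3 was 0.092, past the threshold no longer. FOXA2, the FOXA gene needed for foregut endoderm in the mouse, was at 0.02 ± 0.10 with implied levels of 368 in the group on top and 362 in the group below, in the authors' deposited table. Its 95% interval, from -0.18 to 0.23, did not overlap that of FOXA1 (-3.59 to -2.10) or that of FOXA3 (0.77 to 3.67).

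In KPC none of the Foxa genes was called. Foxa1 was nearest, at 1.07 ± 0.40 with a Wald test adjusted p of 0.058 in the authors' deposited table and an unadjusted p of 0.00662. Its implied levels were 67.9 in the group on top and 32.3 in the group below, and the 95% interval ran from 0.30 to 1.85. Foxa2 was at -0.14 ± 0.26 (implied 577 in the group on top and 638 in the group below) and Foxa3 at -0.47 ± 0.54 (implied 15.2 and 21.1) in the authors' deposited table.

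Hnf4a had the smallest absolute log2 fold change of the 8 factors in KPC. It was at 0.004 ± 0.22 in the authors' deposited table, with implied levels of 2241 in the group on top and 2236 in the group below. The 95% interval, from -0.42 to 0.43, corresponds to 0.75-fold and 1.34-fold. In PANC1 the authors' deposited table had HNF4A at 1.12 ± 1.29. The implied levels there were 2.63 in the group on top and 1.21 in the group below, which leaves the fold undetermined, with an interval from -1.41 to 3.65.

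**Figure D3:**
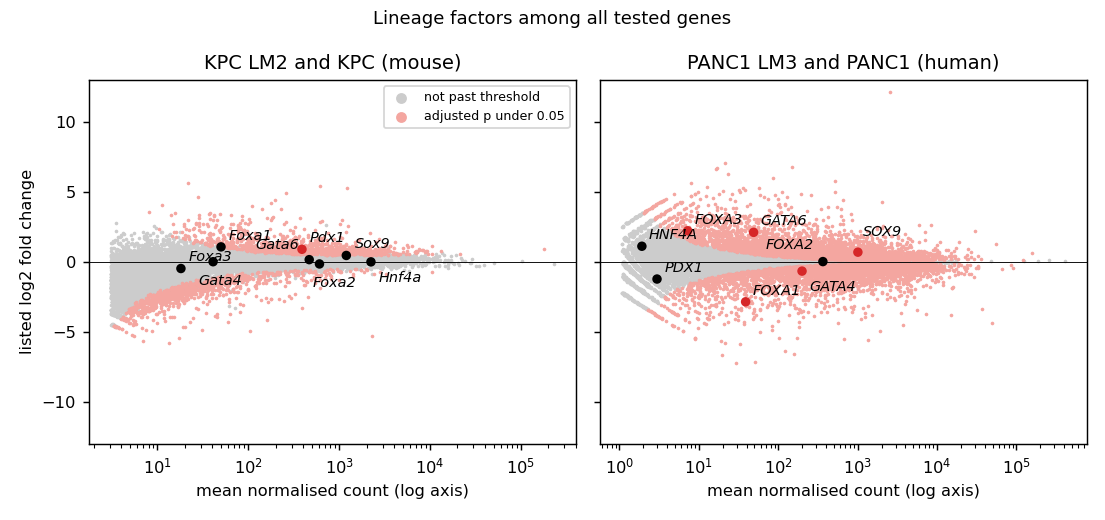
Listed log2 fold change against mean normalised count (log axis) for all tested genes in the mouse model (left) and the human model (right), with genes past an adjusted p of 0.05 in light red. Labelled points are the lineage factors, red where called and black otherwise. In the mouse panel 80.5% of the genes under 64 lie below 0, and the 3 factors under 64 (Foxa1, Gata4 and Foxa3) are not called.

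Over all genes the share called was higher at 64 or more. The factors on each side of that level are too few to compare shares. In KPC 1 of the 5 factors at 64 or more was called, where 12.7% of all genes at that level were, and 0 of the 3 under 64, where 8.19% were. By the unadjusted Wald p, 1 of those 3 (Foxa1) was under 0.05. In PANC1 2 of the 3 factors at 64 or more were called against 69.3% of all such genes, and 3 of the 5 under 64 (GATA6, FOXA1 and FOXA3) against 23.5%. The SE of each factor lay between 0.85 and 1.26 times the median SE of the 501 genes nearest to it in level. That median SE was 0.206 for Hnf4a (listed SE 0.215) and 0.227 for Pdx1 (listed 0.194) in KPC, and 0.299 for FOXA1 (listed 0.378) and 0.265 for GATA6 (listed 0.301) in PANC1.

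Whether a factor differed between the models was tested over the 13,312 symbols found in both tables, with a normal test of the KPC minus PANC1 log2 fold change over its combined SE and Benjamini-Hochberg adjustment. The test assumes that both tables have the derivative on the same side of the ratio, which they do not state, so the sum of the 2 fold changes was tested as well, which applies if they are turned opposite ways. Of all symbols, 33.4% passed for the difference and 28.6% for the sum, against 3 of the 8 factors for each. FOXA1 and GATA6 passed both, so they differed between models under either orientation. FOXA1 had a difference of 3.92 ± 0.55 (normal test, adjusted p 3.30e-11) and a sum of -1.77 (adjusted p 0.00679). GATA6 had a difference of -1.95 ± 0.40 (normal test, adjusted p 1.19e-05) and a sum of 2.27 (adjusted p 2.58e-07). FOXA3 passed only for the difference, at -2.69 ± 0.92 (adjusted p 0.013, and 0.14 for the sum). SOX9 passed only for the sum, at 1.16 (adjusted p 1.48e-05), with a difference of -0.23 ± 0.24 (adjusted p 0.47). GATA4, HNF4A, FOXA2 and PDX1 passed neither.

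The genes around these factors were described with 9 further lists. Of all tested genes, 10.4% were called in KPC (5.77% positive, 4.60% negative) and 52.5% in PANC1 (26.0% and 26.5%). In the mouse table fold changes went with level, with a median of 0.22 for the genes at 64 or more, so each list was also counted after recentring on those genes and after a running median over level was subtracted. Among family relatives, KPC had 0 of 9 tested genes called and PANC1 2 positive and 5 negative of 8 (87.5%). By unadjusted Wald p, 2 of the 9 in KPC were under 0.05, Hnf4g (0.013) and the intestinal homeobox gene Cdx2 (0.012). In the authors' deposited table for PANC1 the paralog GATA5 was at -0.74 ± 0.09, as GATA4 negative, and GATA2, a blood and endothelial GATA factor, at -1.19 ± 0.09. CDX2 (listed mean 13.9) was at -3.54 ± 0.71, and SOX4 at -0.54 ± 0.06, in the authors' deposited table. In KPC the authors' deposited table had Gata5 at 0.21 ± 0.26 and Sox4 at -0.23 ± 0.18, neither past the threshold.

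In KPC, cofactors and repressors of the 8 factors had 3 positive and 2 negative calls among 16 tested genes. That is 31.25%, against 10.4% of all tested genes. In PANC1 they had 4 positive and 5 negative calls among 15 (60%, against 52.5%), a count near the background. The KPC counts became 1 positive and 2 negative after recentring, and 0 and 2 after the running median was subtracted. For the PBX and MEIS proteins, which bind DNA together with PDX1, the authors' deposited table for KPC had Pbx3 at 0.71 ± 0.23, Pbx2 at -0.70 ± 0.21 and Meis1 at -2.29 ± 0.56. The call of Pbx3 was lost in both of those settings (normal test, adjusted p 0.14 and 0.25). Meis2, at 0.18 ± 0.20 in the authors' deposited table for KPC, was not called. In PANC1 the corepressor genes TLE3 and TLE1, whose proteins FOXA factors can recruit, had log2 fold changes of -1.21 ± 0.08 and 0.89 ± 0.11 in the authors' deposited table. NR0B2, which encodes a repressor partner of HNF4A, was at -3.21 ± 0.38 in the authors' deposited table for PANC1. The Notch effector gene HES1 was called positive in both tables, at 0.96 ± 0.26 in KPC and 0.82 ± 0.10 in PANC1 (authors' deposited tables), and the KPC call was lost with the running median subtracted (0.70, normal test, adjusted p 0.10). PBX3 (0.14 ± 0.10) and MEIS1 (-0.24 ± 0.41) were not called in the authors' deposited table for PANC1.

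**Figure D4:**
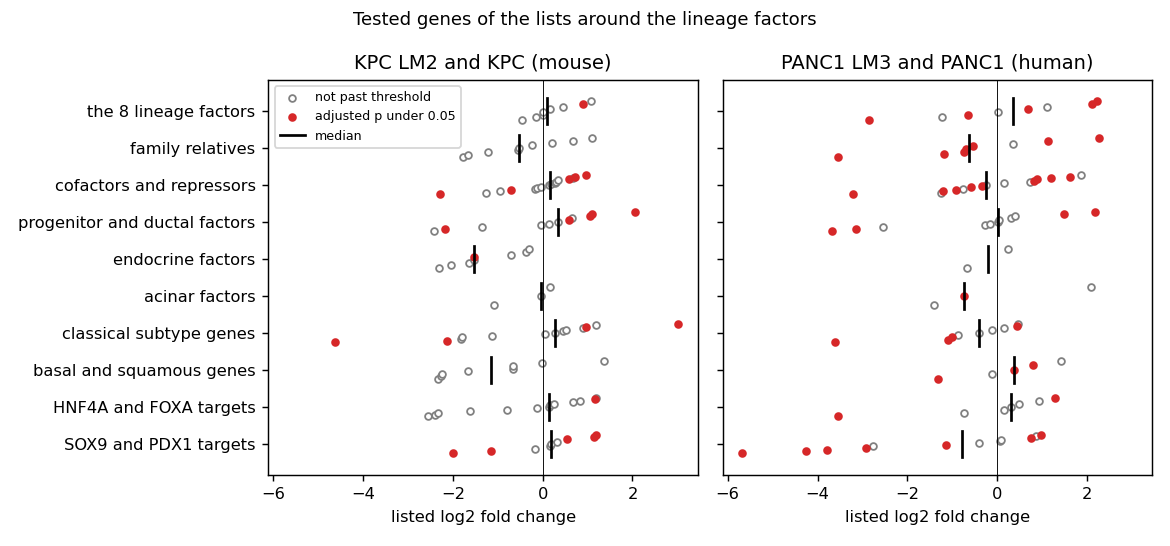
Listed log2 fold change of every tested gene of each list in the mouse model (left) and the human model (right), with 1 row per list. Red points have an adjusted p under 0.05, open points do not, and the black bar is the median of the list. The progenitor and ductal factors have 4 positive and 1 negative call in the mouse model and 2 of each in the human model.

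Of the pancreatic progenitor and ductal factors, 4 positive and 1 negative of 11 tested were called in KPC (5.77% and 4.60% of all genes were) and 2 positive and 2 negative of 11 in PANC1 (26.0% and 26.5%). After recentring 2 positive and 1 negative calls were left in KPC, and after the running median was subtracted 2 and 0. The epithelial ETS factor genes Ehf and Elf3 were at 2.05 ± 0.31 and 1.09 ± 0.27 and Onecut2, a homeobox gene, at 1.06 ± 0.33 in the authors' deposited table for KPC. Prox1, a homeobox factor of the pancreatic and hepatic buds, had a listed mean of only 15.6 and was at -2.17 ± 0.74 in the authors' deposited table. Ehf and Elf3 were called in both other settings, Onecut2 in neither (normal test, adjusted p 0.072 and 0.11), and Prox1 was lost with the running median (adjusted p 0.43). Klf5 (0.66 ± 0.28) and Hhex (0.34 ± 0.19) were not called in the authors' deposited table for KPC. The listed signs of the ETS genes were the other way round in PANC1. There ELF3 was at -3.67 ± 0.09 and EHF (listed mean only 16.5) at -3.15 ± 0.60 in the authors' deposited table. The orientation of each table is not stated, so opposite listed signs alone do not show opposite changes. NKX6-2 was at 2.18 ± 0.41 and the zinc finger gene KLF5 at 1.49 ± 0.34 in the authors' deposited table for PANC1, while TBX3 (-0.27 ± 0.17) and HHEX (0.31 ± 0.18) were not called.

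Most endocrine and acinar factors had low levels, the exception being the acinar factor NR5A2 in PANC1, with a listed mean of 136 in the authors' deposited table. The 8 endocrine factors tested in KPC had a median level of 8.07, and the 1 call was the zinc finger gene Insm1, at -1.52 ± 0.52, in the authors' deposited table; Pax6 (-0.70 ± 0.67) and Rfx6 (-2.04 ± 0.82) were not called. That 1 call was 12.5% of the 8, against 10.4% of all tested genes. With the running median subtracted Insm1 was at -1.06 and not called (normal test, adjusted p 0.28). Of the 2 tested in PANC1 none was called, MAFA being at -0.67 ± 0.39 and PAX6 at 0.25 ± 1.55 in the authors' deposited table. The unadjusted p of neither was under 0.05 by the Wald test. None of 3 acinar factors was called in KPC, or had an unadjusted Wald p under 0.05, where Bhlha15 was at 0.16 ± 0.50 and Rbpjl at -1.08 ± 0.68, and NR5A2 was the 1 of 3 called in PANC1, at -0.74 ± 0.16, in the authors' deposited tables. BHLHA15 (2.09 ± 1.00) and RBPJL (-1.41 ± 1.67) were not called in the authors' deposited table for PANC1. The call of NR5A2 was 33.3% of the 3, against 52.5% of all tested genes.

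Genes that mark the classical subtype went both ways in each model. KPC had 2 positive and 2 negative calls of 13 tested (30.8%, against 10.4% of all tested genes). Agr2, a protein disulfide isomerase of mucus-secreting cells, was at 3.02 ± 0.79 and Vill, of the villin family, at 0.95 ± 0.25. The trefoil factor genes Tff1 and Tff3 were at -2.14 ± 0.38 and -4.61 ± 0.76, all in the authors' deposited table. Vill was just short of the threshold with the running median subtracted (0.75, normal test, adjusted p 0.051). Tspan8 (0.27 ± 0.33) and Ctse (0.44 ± 0.33) were not called in the authors' deposited table for KPC. PANC1 had 1 positive and 3 negative of 9 (44.4%, against 52.5% of all tested genes). VILL was at 0.45 ± 0.14 and AGR2 at -1.01 ± 0.07 in the authors' deposited table. TSPAN8 was at -3.62 ± 0.50 and TFF2 at -1.09 ± 0.44 there, with listed means of only 29.0 and 18.6. LGALS4 (0.15 ± 0.29) and TFF3 (-0.40 ± 0.32) were not called in the authors' deposited table for PANC1. Basal and squamous genes had 0 of 8 called in KPC, where 10.4% of all tested genes were. By unadjusted Wald p, 2 of the 8 (Krt5 and Krt14) were under 0.05. The abundant chromatin gene Hmga2 was at -0.01 ± 0.19 and Gli2 at -0.66 ± 0.58 in the authors' deposited table. With the running median subtracted 1 of the 8, Krt14, was called (2.25, normal test, adjusted p 0.016). In PANC1 2 were positive and 1 negative of 5 (60%, against 52.5% of all tested genes), a count near the background. HMGA2 was at 0.38 ± 0.06, S100A2 at 0.81 ± 0.23 and TP63, the factor of squamous epithelium, at -1.32 ± 0.40 in the authors' deposited table. GLI2 (-0.12 ± 0.26) and KRT17 (1.43 ± 0.77) were not called.

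Known targets of HNF4A and the FOXA factors in liver and gut had 1 call of 13 tested in KPC (7.69%, against 10.4% of all tested genes). It was the gut cadherin gene Cdh17, whose listed mean was 6409, at 1.16 ± 0.31 in the authors' deposited table. Apob, which encodes the apolipoprotein B of lipoprotein particles, stood at 9009 and was at -0.13 ± 0.32, and the villin gene Vil1 at 0.17 ± 0.25, in the authors' deposited table for KPC. In PANC1 CDH17 was also positive, at 1.28 ± 0.33 with a level of 34.0, and CDX2, which is in this list too, was the 1 negative call of 7 tested, in the authors' deposited table. The calls of this list in PANC1 came to 28.6% of those tested, against 52.5% of all tested genes, and TFR2 (0.30 ± 0.21) was not called. Targets of SOX9 and PDX1 had 3 positive and 2 negative calls of 9 tested in KPC (55.6%, against 10.4%). The cartilage matrix gene Acan was at 1.15 ± 0.22, the keratin gene Krt7 at 1.18 ± 0.18 and the osteopontin gene Spp1 at 0.54 ± 0.17, against the adhesion gene Epcam at -1.14 ± 0.28, in the authors' deposited table. The call of Spp1 was lost after recentring (0.32, normal test, adjusted p 0.21) and with the running median (0.34, adjusted p 0.30), and Col2a1, the other negative call, was lost with the running median (-1.09, adjusted p 0.47). Itga2 (0.18 ± 0.24) and Krt19 (0.32 ± 0.19) were not called in the authors' deposited table for KPC. PANC1 had 2 positive and 5 negative of 12 (58.3%, against 52.5%). EPCAM was at 0.97 ± 0.10 and ITGA2 at 0.75 ± 0.06 in the authors' deposited table. The keratin gene KRT19 was at -3.79 ± 0.05 and the surface sialoglycoprotein gene CD24 at -2.91 ± 0.13 there. KRT7 (0.09 ± 0.26) and SLC2A2 (-0.41 ± 0.94) were not called in the authors' deposited table for PANC1.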

How the data were processed

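RNA from 12 samples in 4 groups was sequenced after TruSeq library preparation, per the labels' protocols. DESeq2 1.24, MultiQC 1.9, featureCounts 2.0.0 and STAR 2.7.6a are named, with builds hg19 and mm39, per the submitters' processing notes; settings, strandedness and annotation are not given in the sources used here. Per the file headers, the deposited columns are a mean normalised signal (baseMean), a log2 fold change with its SE on the log2 scale, a Wald statistic (a score), a p-value and an adjusted p-value, with a signed -log10 p (a score, not used). A two-sided normal test of the Wald statistic gave the listed p-values back within 5.0e-08. Counts per library were not analysed here, so the count test, leave-one-out and another normalisation could not be run. Group levels were computed as 2m·r/(1 + r) on top and 2m/(1 + r) below, with m the listed mean and r the fold change. Intervals of 95% are normal. Mouse exonic lengths are unions of exons in GENCODE M21 (GRCm38, another build than the authors', so no coordinates are given).

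The members and lists were chosen with earlier results of these data known. All 8 members were named; from each list, per table, up to 4 called genes with the smallest adjusted p and up to 2 uncalled genes with the highest level, and the most abundant marker of host lists; further genes were named for context after their values were seen. List genes with no row (3 of 14 progenitor and ductal factors in each table, for example) were not analysed here. Genes of like pattern were not sought, since the 2 tables hold 2 comparisons and no libraries. The alternatives were a stricter adjusted p, a minimum fold, adjustment over all genes with a p, genes at 64 or more only, recentring, subtraction of a running median over level (250 genes on each side) and a t scale with 4 degrees of freedom. The calculations, tested on simulated data, used scipy 1.17.1, pandas 2.3.3, matplotlib 3.10.9, numpy 2.4.6 and Python 3.11.15. 1 gene picked by the rule for named genes is not reported here.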

Additional observations from a re-analysis of the deposited data

Results flagged for a closer look

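Of the 8 lineage factors, 3 had KPC and PANC1 log2 fold changes that differed by the test of the difference, on the assumption that both tables have the same orientation. FOXA1 differed by 3.92 (KPC minus PANC1), being 1.07 in KPC and -2.85 in PANC1. GATA6 differed by -1.95, being 0.16 in KPC and 2.11 in PANC1. FOXA3 differed by -2.69, being -0.47 in KPC and 2.22 in PANC1, with few counts in PANC1. The same test was passed by 33.4% of all symbols found in both tables.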

How the results depend on the processing

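No paired analysis was possible because the tables hold no values per library, and for the same reason no replicate was left out in turn. The count of KPC genes called, 2079, was 889 at an adjusted p under 0.01, 1303 with an absolute log2 fold change over 1, 1345 with genes at 64 or more, 1133 after the running median was subtracted and 0 on a t scale with 4 degrees of freedom (2132 unadjusted). Recentring by 0.22 moved the share of positive KPC calls to 23.5%, against 55.7% as listed. PANC1 had 9361 genes called, and 2759 with an absolute log2 fold change over 1. KPC members called went from 1 to 0 with the minimum fold and with the t scale, where 1 member (Pdx1) had an unadjusted p under 0.05. PANC1 members called went from 5 to 3 with the minimum fold, which SOX9 and GATA4 miss, and to 2 of 3 tested at 64 or more. Members that differed between models went from 3 to 0 with genes at 64 or more, where 2 could be tested, since FOXA1, GATA6 and FOXA3 are under 64 in at least 1 table; by the normal test neither of these 2 (SOX9 and FOXA2) had an unadjusted p under 0.05. FOXA3 lost its call of a difference after the running median was subtracted (-1.92, adjusted p 0.10). Signs of uncalled KPC members turned with recentring for Gata4 (-0.20), Gata6 (-0.0567) and Hnf4a (-0.22), and with the running median for Gata6 (-0.0357), Hnf4a (-0.25) and Foxa3 (0.23), so their signs are not settled. The cause of the changes was not tested except where fewer genes were tested. In PANC1 the low levels of HNF4A, PDX1 and FOXA3 limit what could be called.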

Other observations

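Of the 64 genes of the other lists that were in both tables, 10 were called in both, 4 with the same and 6 with opposite listed signs. Among all 13,312 shared symbols, 972 were called in both (7.30%, against 15.6% of the list genes), 416 with the same and 556 with opposite listed signs, a split close to that of the 10. They are named here after their values were seen. The same listed sign was found for HES1, CDH17, VILL and the cartilage collagen gene COL2A1 (-1.99 ± 0.70 in KPC and -4.26 ± 0.52 in PANC1, in the authors' deposited tables). HES1, CDH17 and VILL passed for the sum (normal test, adjusted p 8.09e-09, 1.23e-06 and 1.69e-05) and not for the difference (adjusted p 0.73, 0.87 and 0.17), so whether the models differ in them depends on the unstated orientation of the tables. Opposite listed signs were found for EHF, ELF3, AGR2, EPCAM, TLE3 and PBX2. ELF3 had a KPC minus PANC1 difference of 4.76 ± 0.28 (normal test, adjusted p 2.11e-59) and a sum of -2.58 (adjusted p 1.44e-17), so it differed between models under either orientation of the tables. AGR2, with a listed mean of only 21.6 in KPC, also passed both, with a difference of 4.04 ± 0.79 (adjusted p 5.31e-06) and a sum of 2.01 (adjusted p 0.042). So did TLE3, with 1.80 ± 0.21 (adjusted p 4.14e-16) and -0.63 (adjusted p 0.012). COL2A1 passed both too, with a difference of 2.26 ± 0.87 (adjusted p 0.031) and a sum of -6.25 (adjusted p 3.41e-11). EHF passed for the difference, at 5.20 ± 0.68 (adjusted p 7.71e-13), and not for the sum (adjusted p 0.23). EPCAM, a surface adhesion gene of epithelia, and PBX2 likewise passed for the difference, at -2.12 ± 0.30 (adjusted p 3.78e-11) and -1.90 ± 0.58 (adjusted p 0.00487), and not for the sum (adjusted p 0.71 and 0.57). With the running median over level subtracted, the KPC calls of HES1, VILL, COL2A1 and TLE3 and the PANC1 call of PBX2 were lost.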
